A study of Mus musculus with 2 samples.

Results

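Prickle1, Prickle2 and Prickle3, 3 paralogues, were followed together with Rest, Rcor1, Sin3a and Usp15 in droplet single-cell RNA profiles of the whole uterus of mice. The 7 genes were chosen by symbol, from the 32285 genes of the files. All 7 had UMIs (unique molecular identifiers, 1 per captured transcript) in both libraries. The data were 2 libraries of female C57BL/6J mice aged 6 months, each a pool of 3 mice. The library labelled control came from Prickle1 f/f mice, and the cKO-labelled library from Prickle1 f/f MiC mice, so both groups carried the same floxed alleles. MiC, the floxed exon and the cells in which deletion occurs are not explained in the labels, where both libraries have wild-type as genotype. By its title the study asked what loss of PRICKLE1 in the myometrium, the smooth muscle wall of the uterus, does to the organ.

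Prickle proteins carry a PET domain and LIM domains and act inside the cell in the planar cell polarity pathway, which orients cells within a tissue plane. Human PRICKLE1 was also described as REST-interacting LIM domain protein, which binds the repressor REST and takes part in its nuclear transport. REST binds a bipartite DNA element near neuronal genes and silences them outside neurons through the corepressor platforms RCOR1 (CoREST) and SIN3A, which bring in histone deacetylases. USP15 is a deubiquitinase that removes ubiquitin chains, and REST is among its described substrates.

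On GRCm38, in the GENCODE vM21 annotation, Prickle1 (ENSMUSG00000036158) lies on the minus strand at chr15:93499114-93595891 and Prickle2 (ENSMUSG00000030020) on the minus strand at chr6:92370908-92706155. Prickle3 (ENSMUSG00000031145) lies at chrX:7657260-7668186, where its span overlaps Plp2 on the opposite strand. Rest (ENSMUSG00000029249) lies at chr5:77265491-77286432 and Rcor1 (ENSMUSG00000037896) at chr12:111039351-111115901, both on the plus strand. Sin3a (ENSMUSG00000042557) lies at chr9:57072040-57128366 and overlaps the antisense gene Man2c1os, and Usp15 (ENSMUSG00000020124) lies on the minus strand at chr10:123105006-123196995 and overlaps Gm4129 on the opposite strand. Whether the counting used strand is not given in the sources used here, so the UMIs of the 3 overlapped genes carry that uncertainty.

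RefSeq promoter windows (250 bases before to 50 after each start, GRCm38.p6) were matched for 6 of the 7 genes. They were searched on both strands for the left arm CAGCACC and the right arm GGACAGC of the REST element. The left arm was in 7.14% and the right arm in 6.56% of the 32851 windows searched, all of the same length. Windows of 1 chromosome, which holds none of the 7 genes, were left out of the search. The arms stood 2 bases apart, as in the full element, in 7 windows (0.0213%), and in none of the genes described here. The windows that held an arm are shown because they bear on whether the Prickle genes hold the letters that REST reads. They are the 250 bases before the start, 5′ to 3′ on the gene's minus strand, with the arm in capitals.
Prickle1 start 1, chr15:93595903-93596152: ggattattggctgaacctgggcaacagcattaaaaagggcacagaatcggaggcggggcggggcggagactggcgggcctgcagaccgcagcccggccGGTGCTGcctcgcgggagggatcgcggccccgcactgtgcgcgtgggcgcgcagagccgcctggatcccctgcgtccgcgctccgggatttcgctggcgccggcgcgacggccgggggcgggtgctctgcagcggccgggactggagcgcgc
Prickle1 start 2, chr15:93519521-93519770: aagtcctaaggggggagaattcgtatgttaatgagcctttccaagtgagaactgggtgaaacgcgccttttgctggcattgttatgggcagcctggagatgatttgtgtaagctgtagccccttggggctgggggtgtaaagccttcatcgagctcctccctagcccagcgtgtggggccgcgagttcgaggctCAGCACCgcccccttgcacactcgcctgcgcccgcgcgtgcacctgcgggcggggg
Prickle2 start 1, chr6:92706185-92706434: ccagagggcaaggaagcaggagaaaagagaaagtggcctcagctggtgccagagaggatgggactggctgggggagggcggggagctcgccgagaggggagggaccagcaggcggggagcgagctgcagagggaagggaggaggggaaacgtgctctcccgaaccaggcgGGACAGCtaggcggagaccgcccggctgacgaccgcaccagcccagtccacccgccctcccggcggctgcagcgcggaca
The first Prickle1 window held the left arm on the reverse strand at position -152 from the start, and the second held it on the gene's own strand at position -56. The first of 4 Prickle2 windows held the right arm at position -80, and the others held neither arm. A match of these letters is a description of the window and not a site. Of 32 listed REST target genes, 23 had a window among those searched. In any of their windows 5 of these genes held the left arm, 4 the right arm and 0 the full pair. These counts are per gene, unlike the shares above, which are per window.

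The library labelled control held 45035801 UMIs and 3487 cells (median 4949 UMIs per cell), and the cKO-labelled library 34261441 UMIs and 3585 cells (median 4899), and 6 cell barcodes were shared. Cells formed 23 clusters, named as like a cell type from marker genes. Only 1 pool was sequenced per group, so no value has a replicate error, no test was made, and mice within a pool cannot be separated. Levels are UMIs per 1000000 of the class total (CPM). Intervals are exact at 95% and cover counting error only. Ratios are cKO over control. The log2 ratio adds 5 CPM to each level, which understates differences of low genes, and a gene was counted as past 1.5-fold on that scale if it had at least 20 UMIs over both libraries in the class.

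Prickle1 was sparse in both libraries, and its level over all cells was not lower in the cKO-labelled library. Over all cells it had 96 UMIs (2.56 CPM) in the control-labelled library and 264 UMIs (9.0 CPM) in the cKO-labelled library. Its log2 ratio was above 0 in all 6 cell classes that had at least 100 cells in each library, although 2 of these classes held under 20 UMIs. In macrophage or monocyte-like cells the counts were 0 and 1. In the same 6 classes 57.6% to 69.6% of all genes compared had a log2 ratio above 0. The counts are tags from the 3-prime end of the transcript, so a tag outside the deleted part does not check the labels, and a shortened transcript would be counted like a full one.

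The smooth muscle-like class was named from markers and was not divided into muscle of the myometrium and of vessels. In these cells Prickle1 had 14 UMIs (14.8 CPM, 8.11 to 24.9) in 313 cells of the control-labelled library. It had 51 UMIs (24.4 CPM, 18.1 to 32.0) in 680 cells of the cKO-labelled library. The intervals overlapped, and the ratio was 1.64 (0.895 to 3.21), so a difference was not detectable at this depth. The log2 ratio was 0.56, where the median of all 9297 genes compared in these cells was 0.21. A Prickle1 UMI was found in 10 of 313 cells (3.19%) and in 46 of 680 cells (6.76%). Macrophage or monocyte-like cells (macrophage-like from here on) had the lowest level of the classes with at least 100 cells in each library. Their shares were 0 of 312 (exact interval up to 1.18%) and 1 of 227 (0.441%, up to 2.43%). They had 7692 and 5802 median UMIs against 1886 and 2013 in smooth muscle-like cells. The share in the muscle class was above that of macrophage-like cells in both libraries at lower depth. The muscle intervals, 1.54 to 5.80% and 4.99 to 8.92%, overlapped those of epithelium-like cells in both libraries. The epithelium-like shares were 1.15% (0.642 to 1.88) and 4.59% (1.51 to 10.4).

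In the 2 smooth muscle-like clusters the ratios lay on opposite sides of 1, and both intervals held 1. In cluster 17, led by Flrt1, Myh11, Gata6 and the progesterone receptor gene Pgr, Prickle1 had 10 UMIs (17.7 CPM) and 49 UMIs (31.5 CPM), a ratio of 1.78 (0.891 to 3.94). In cluster 12, a shallow cluster led by the contractile genes Actg2, Acta2 and Tagln, it had 4 UMIs (10.6 CPM) and 2 UMIs (3.72 CPM), a ratio of 0.352 (0.0318 to 2.45). When both clusters were weighted equally the log2 ratio of Prickle1 was -0.08, against 0.56 from the sum. In the class 8 smooth muscle markers summed to 11259 CPM in the control-labelled library and 7052 CPM in the cKO-labelled library. No marker was at 0 in either. The 8 markers summed to 22081 and 15353.5 CPM in cluster 12, but to 4034 and 4190 CPM in cluster 17. Cluster 17 held 108 of the 313 cells of the class in the control-labelled library and 345 of 680 in the cKO-labelled library. Over the class 5 erythroid markers summed to 48.8 CPM, with 1 marker at 0, and to 975 CPM with none at 0. In the same cells 6 fibroblast markers summed to 855 and 539 CPM. The part of these marker levels and of the cluster shares in the Prickle1 values of the class was not tested. In barcodes with at most 100 UMIs, which hold free RNA, Prickle1 was at 1.55 and 7.09 CPM, and with free RNA subtracted the log2 ratio of the class was 0.57.

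Fibroblast-like cells gave the most Prickle1 UMIs, 43.8% of those in cells of the control-labelled library and 54.2% of those of the cKO-labelled library. The level was 4.37 CPM (3.15 to 5.91, 42 UMIs in 853 cells) and 8.88 CPM (7.48 to 10.5, 143 UMIs in 1342 cells). These intervals did not overlap, and the ratio was 2.03 (1.43 to 2.94), with a log2 ratio of 0.57 beside 0.06 for all genes of the class. Of the 143 UMIs, 72 lay in cluster 22, which is led by the deiodinase gene Dio2, the retinoic acid synthesis gene Aldh1a2 and A2m, and which took 93.3% of its cells from the cKO-labelled library. There 48 of 222 cells (21.6%) held a Prickle1 UMI, at 15.9 CPM (12.4 to 20), while the 16 cells of the other library held 1 UMI. Without cluster 22 the log2 ratio was 0.25. In the other fibroblast-like clusters Prickle1 lay between 1.67 and 9.72 CPM in the control-labelled library and between 3.74 and 17.4 CPM in the cKO-labelled library. Cluster 14, the shallowest, had the lowest level of the first library and the highest of the second, from 1 and 4 UMIs.

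Among lymphocytes Prickle1 was concentrated in cluster 9. This cluster is led by Trdc and Tcrg-C1, which encode constant regions of the gamma delta T cell receptor, and by the scavenger receptor gene Cd163l1. It held 6 of the 7 Prickle1 UMIs of T or NK cell-like cells in the control-labelled library and 37 of the 39 in the cKO-labelled library. The level was 14.2 CPM (5.21 to 30.9) and 31.9 CPM (22.5 to 44.0), beside 17.7 and 31.5 CPM in smooth muscle-like cluster 17. The ratio within the cluster was 2.25 (0.941 to 6.52). In the cKO-labelled library 10.8% of its 297 cells held a Prickle1 UMI, against 0.337% of 297 cells in cluster 13, led by the natural killer cell genes Il2rb, Gzma and Klrk1. With every cell thinned to 1000 UMIs the shares were 3.70% and 0.337%. In the control-labelled library the shares were 5.10% of 98 cells and 0.725% of 138 cells, and after thinning 0 in both clusters. Cluster 19, led by Gata3, Il2ra and Icos, had 0 Prickle1 UMIs in either library, with exact intervals up to 8.55 and 5.51 CPM. Over the class the ratio was 2.83 (1.25 to 7.49) and the log2 ratio 0.88, past 1.5-fold, where 12.6% of 10023 genes were past 1.5-fold in either direction and 8.22% upward. With the 3 clusters weighted equally the log2 ratio was 0.33, under 1.5-fold. Cluster 9 made up 98 of 333 cells of the class in the control-labelled library and 297 of 747 in the cKO-labelled library. In cluster 9 erythroid markers summed to 11.8 CPM, with 4 of 5 at 0, and 1701 CPM with none at 0, smooth muscle markers to 54.4 and 146 CPM, and fibroblast markers to 99.4 and 141 CPM, and their part was not tested.

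Lymphatic endothelium-like cells, the lining of lymph vessels, had 8 Prickle1 UMIs in 31 cells (17.5 CPM, 7.54 to 34.4) and 16 in 103 cells (11.4 CPM, 6.51 to 18.5). These intervals overlapped. Mesothelium-like cells, the outer covering, had 6 UMIs (6.41 CPM) and 4 UMIs (7.14 CPM), epithelium-like cells 17 UMIs (0.902 CPM) and 5 UMIs (3.71 CPM), and dendritic cell-like cells 1 and 4 UMIs. In the cKO-labelled library the order ran from smooth muscle-like cells to T or NK cell-like, lymphatic endothelium-like and fibroblast-like cells, and the intervals of neighbours overlapped below the first step. In the control-labelled library lymphatic endothelium-like cells came first and smooth muscle-like cells second, with overlapping intervals.

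**Figure D1:**
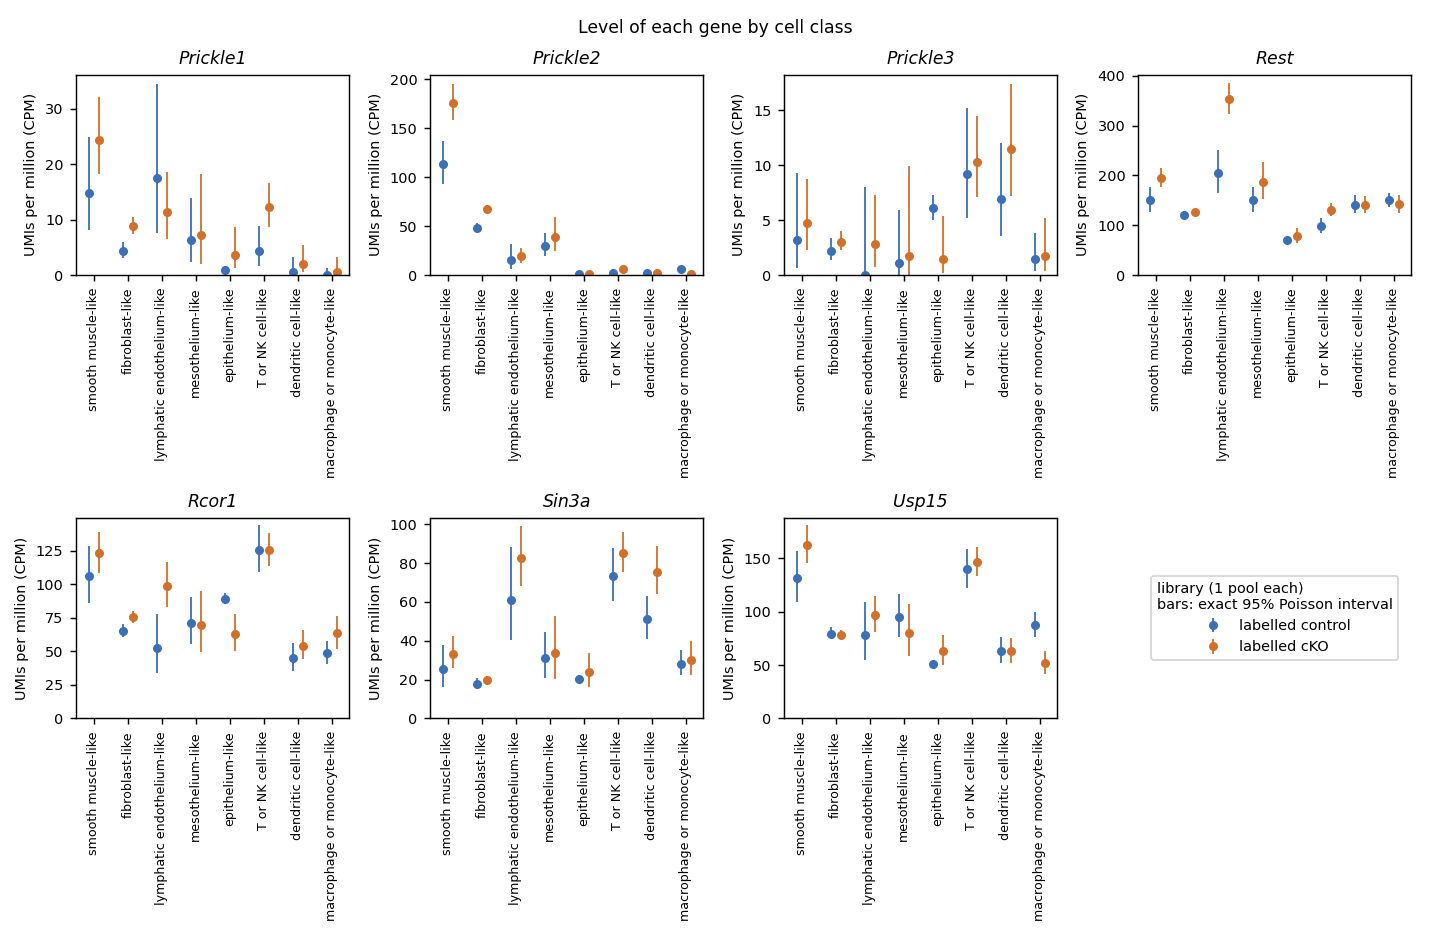
Level of each of the 7 genes in 8 cell classes, in CPM on a linear axis that starts at 0. Points are the 2 libraries, 1 pool each, and bars are exact 95% Poisson intervals. Prickle1 and Prickle2 are high in smooth muscle-like cells and near 0 in macrophage-like cells, Rest is highest in lymphatic endothelium-like cells, and Sin3a in T or NK cell-like, lymphatic endothelium-like and dendritic cell-like cells.

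Prickle2, which also acts in planar cell polarity, had its highest levels in both libraries in the smooth muscle-like and fibroblast-like classes. In smooth muscle-like cells it had 107 UMIs (113 CPM, 93.0 to 137) in the control-labelled library and 369 UMIs (176 CPM, 159 to 195) in the cKO-labelled library. The intervals did not overlap. The ratio was 1.55 (1.25 to 1.94) and the log2 ratio 0.61, past 1.5-fold, where 26.1% of the genes of this class were past 1.5-fold in either direction and 18.8% were past it upward. Both clusters gave a ratio above 1, with 1.39 (1.09 to 1.79) in cluster 17 and 1.52 (0.923 to 2.58) in cluster 12. Each within-cluster log2 ratio, 0.46 and 0.57, was under 1.5-fold, and the all-gene medians of the clusters were 0.20 and 0.20. The class value was also under 1.5-fold with the clusters weighted equally (0.51), with scaling by the median of gene ratios (0.38) and with a mitochondrial limit of 10% (0.57). A larger share of the class came from the higher cluster 17 in the cKO-labelled library, at 345 of 680 cells against 108 of 313.

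In fibroblast-like cells Prickle2 was at 48.5 CPM (44.2 to 53.1, 466 UMIs) and 67.2 CPM (63.2 to 71.3, 1082 UMIs), for a ratio of 1.39 (1.24 to 1.55). Its log2 ratio of 0.43 was under 1.5-fold, in a class where 6.47% of 13053 genes were past it in either direction. In clusters with at least 20 cells in each library the ratio ranged from 0.951 (0.743 to 1.22) in cluster 5, led by Thbs2, Ngfr and Nog, through 1.50 (1.24 to 1.81) in cluster 10, led by Pdgfra, Igfbp3 and Dpt, to 4.56 (1.78 to 12.5) in the shallow cluster 14. Cluster 22, with 93.3% of its cells from the cKO-labelled library, was at 82.3 CPM there, and 53.6% of those cells had a Prickle2 UMI. It gave 373 of the 1082 UMIs of the class, while its 16 cells of the control-labelled library held 6 UMIs. The class log2 ratio lay between 0.26 and 0.54 over the 10 processing alternatives, which include leaving out clusters mostly from 1 library. Mesothelium-like cells were at 29.9 and 39.3 CPM, mast cell-like cells at 0 and 5 UMIs (40.2 CPM, 13.1 to 93.8) and lymphatic endothelium-like cells at 15.3 and 19.2 CPM. Epithelium-like, dendritic cell-like, T or NK cell-like and macrophage-like cells were at 0.742 to 6.31 CPM in both libraries. In macrophage-like cells the counts were 17 and 2 UMIs, a ratio of 0.188 (0.021 to 0.791), but the 17 UMIs lay in 6 cells. Across the 19 combinations of class and library with at least 20 cells, Prickle1 and Prickle2 had a Pearson r of 0.78 on log2(CPM + 5), a description over points that share a library and, for Prickle1, rest on few UMIs.

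Prickle3, an X-linked paralogue, had its highest levels among the 6 compared classes in T or NK cell-like and dendritic cell-like cells. In the control-labelled library 65.7% of its 175 UMIs came from epithelium-like cells. Dendritic cell-like cells had 6.90 CPM (12 UMIs) and 11.5 CPM (22 UMIs), and T or NK cell-like cells 9.24 CPM (15 UMIs) and 10.3 CPM (33 UMIs), with overlapping intervals. Smooth muscle-like cells held 3 and 10 UMIs and fibroblast-like cells 21 and 49 UMIs (2.19 and 3.04 CPM). In epithelium-like cells Prickle3 had 115 UMIs (6.10 CPM, 5.04 to 7.32) and 2 UMIs (1.48 CPM, 0.180 to 5.36), a ratio of 0.243 (0.0291 to 0.899) and a log2 ratio of -0.78. That is past 1.5-fold, in a class where 39% of 12353 genes were past 1.5-fold, and the cKO-labelled library gave only 109 epithelium-like cells against 1310. The intervals overlapped, and with cells thinned to 1000 UMIs the log2 ratio was 0.0014. Epithelium-like clusters 0 and 6, almost only from the control-labelled library, held 17 and 52 of the 115 UMIs. In clusters 7 and 8, which both libraries shared, the ratio was below 1, but both intervals held 1. Cluster 7 had 12 and 2 UMIs, a ratio of 0.511 (0.0555 to 2.29), and cluster 8 had 34 and 0 UMIs. The correlation of Prickle3 with Prickle1 and Prickle2 over the same 19 points was -0.16 and -0.30.

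Rest was detected in every named class. It was highest in lymphatic endothelium-like cells among classes with at least 20 cells in each library. There it had 94 UMIs in 31 cells (205 CPM, 166 to 251) and 497 UMIs in 103 cells (354 CPM, 324 to 386), and the intervals did not overlap. In this class the lymphatic endothelium markers, counted over 7 gene entries, summed to 11517 and 5768 CPM, with 1 entry at 0 in each library. Fibroblast markers summed to 157 and 717 CPM, dendritic cell markers to 17.5 and 348 CPM and T or NK cell markers to 0 and 130 CPM, and the part of these in the Rest and target levels of the class was not tested. In smooth muscle-like cells Rest was at 151 CPM (127 to 177) and 195 CPM (176 to 215), for a ratio of 1.29 (1.07 to 1.58) with overlapping intervals. By cluster the ratio was highest in the shallow cluster 12, at 2.44 (1.49 to 4.18) from 21 and 73 UMIs. In cluster 17 Rest was at 214 CPM and 215 CPM, a ratio of 1.01 (0.815 to 1.25). Erythroid markers were at 109 and 1797 CPM in cluster 12 and at 8.84 and 691 CPM in cluster 17, and their part was not tested.

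In fibroblast-like cells Rest was at 121 CPM (114 to 128, 1159 UMIs) and 127 CPM (122 to 133, 2046 UMIs), for a ratio of 1.05 (0.980 to 1.13). The log2 ratio was 0.07. It was -0.01 with scaling by the median of gene ratios, -0.04 with free RNA subtracted and 0.43 with clusters weighted equally. The level differed between fibroblast-like clusters. It was highest in cluster 11, led by Col3a1, Hsd11b2 and Col1a1, at 233 CPM and 353 CPM, a ratio of 1.51 (1.26 to 1.82). It was at 72.3 and 102 CPM in cluster 2, led by Cxcl5, Ptx3 and Has2, a ratio of 1.42 (1.17 to 1.73), and at 99.2 and 88.0 CPM in cluster 5. The largest cluster ratio was 2.21 (1.36 to 3.59) in the shallow cluster 14, from 40 and 34 UMIs. Without cluster 22, where Rest was at 97.3 CPM in the cKO-labelled library, the log2 ratio of the class was 0.19 against 0.07. In T or NK cell-like cells Rest was at 98.5 CPM (83.9 to 115) and 131 CPM (118 to 144), for a ratio of 1.33 (1.10 to 1.60). The ratio was above 1 in each of the 3 clusters, where the all-gene medians were also above 0. Its interval lay above 1 only in cluster 13, at 1.44 (1.08 to 1.95). Macrophage-like cells (150 and 142 CPM) and dendritic cell-like cells (141 and 140 CPM) had overlapping intervals. With cells thinned to 1000 UMIs the dendritic cell-like log2 ratio was -0.77, from 29 and 22 UMIs, against -0.01. Epithelium-like cells were lowest of the 6 compared classes at 69.7 and 77.9 CPM.

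Of the corepressor platforms, Rcor1 was highest in T or NK cell-like cells among the 6 compared classes, at 126 CPM (109 to 144) and 126 CPM (114 to 139), and lowest in dendritic cell-like cells in both libraries, at 44.9 and 54.2 CPM. Smooth muscle-like cells were at 106 and 123 CPM, a ratio of 1.16 (0.919 to 1.48). Fibroblast-like cells were at 65.4 CPM (60.4 to 70.8) and 75.6 CPM (71.4 to 80.0), for a ratio of 1.16 (1.05 to 1.27). The ratio was above 1 in all 5 clusters with at least 20 cells in each library, where the all-gene medians were also above 0. Its interval lay above 1 only in cluster 11, at 1.60 (1.17 to 2.19). In cluster 10 the log2 ratio was 0.08 beside 0.07 for all genes. In epithelium-like cells Rcor1 was at 89.4 CPM (85.2 to 93.8) and 63.1 CPM (50.4 to 78.0), for a ratio of 0.706 (0.561 to 0.878). Epithelium-like clusters 0 and 6 were almost only from the control-labelled library. In clusters 7 and 8, which both libraries shared, the ratio was 0.833 (0.608 to 1.12) and 1.43 (0.922 to 2.14), so the lower level was not seen in both shared clusters.

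Sin3a had its highest levels in T or NK cell-like, lymphatic endothelium-like and dendritic cell-like cells in both libraries. T or NK cell-like cells had 73.3 CPM (60.7 to 87.7) and 85.0 CPM (75.2 to 95.8), lymphatic endothelium-like cells 61.1 and 82.6 CPM, and dendritic cell-like cells 51.2 CPM (41.1 to 63.0) and 75.6 CPM (63.8 to 89.0). The dendritic cell-like ratio was 1.48 (1.13 to 1.95) from 89 and 145 UMIs, with a log2 ratio of 0.52 under 1.5-fold, in a class where 24.1% of 8561 genes were past it and the all-gene median was 0.21. With cells thinned to 1000 UMIs that log2 ratio was -0.47, from 14 and 13 UMIs. In this class T or NK cell markers summed to 49.5 and 188 CPM, macrophage or monocyte markers to 167 and 381 CPM, epithelium markers to 732 and 148 CPM and erythroid markers to 5.18 and 1694 CPM, and their part was not tested. Fibroblast-like cells were at 17.9 and 19.7 CPM and epithelium-like cells at 20.4 and 23.8 CPM. Smooth muscle-like cells were at 25.4 and 33.4 CPM, with overlapping intervals.

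Among the 6 compared classes Usp15 was highest in T or NK cell-like and smooth muscle-like cells. In T or NK cell-like cells it was at 140 CPM (122 to 159) and 147 CPM (134 to 160), and within them at 194 and 174 CPM in cluster 9. In smooth muscle-like cells it was at 131 CPM (109 to 157) and 163 CPM (146 to 181), for a ratio of 1.24 (1.01 to 1.53). Within the clusters the interval of the ratio held 1, at 1.07 (0.615 to 1.90) in cluster 12 and 1.10 (0.876 to 1.39) in cluster 17. Their log2 ratios, 0.09 and 0.13, lay below the all-gene medians of these clusters, 0.20 and 0.20. In fibroblast-like cells it was at 79.6 CPM (74.1 to 85.4) and 78.4 CPM (74.1 to 82.8), for a ratio of 0.984 (0.899 to 1.08). Macrophage-like cells were the exception. There Usp15 had 236 UMIs in 312 cells (87.5 CPM, 76.7 to 99.4) and 87 UMIs in 227 cells (51.5 CPM, 41.3 to 63.6), and the intervals did not overlap.

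The macrophage-like ratio of Usp15 was 0.589 (0.455 to 0.756) and its log2 ratio -0.71, past 1.5-fold, in a class where 14.3% of 8912 genes were past 1.5-fold in either direction and 6.97% downward. A Usp15 UMI was found in 120 of 312 cells (38.5%) and 59 of 227 cells (26.0%). The log2 ratio lay between -0.86 and -0.61 over the 10 processing alternatives. Leaving out clusters mostly from 1 library and weighting clusters equally could not change it, as the class was 1 cluster. Rest, Rcor1 and Sin3a in the same cells had ratios of 0.946 (0.803 to 1.11), 1.30 (1.00 to 1.70) and 1.07 (0.736 to 1.55). With cells thinned to 1000 UMIs the log2 ratio of Sin3a was 1.35, from 5 and 11 UMIs, against 0.08. Erythroid markers in this class summed to 9.64 CPM, with 2 of 5 at 0, and to 1893 CPM with none at 0, fibroblast markers to 837 and 752 CPM, dendritic cell markers to 107 and 232 CPM and T or NK cell markers to 20.8 and 92.4 CPM. The part of these in the Usp15 value was not tested.

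**Figure D2:**
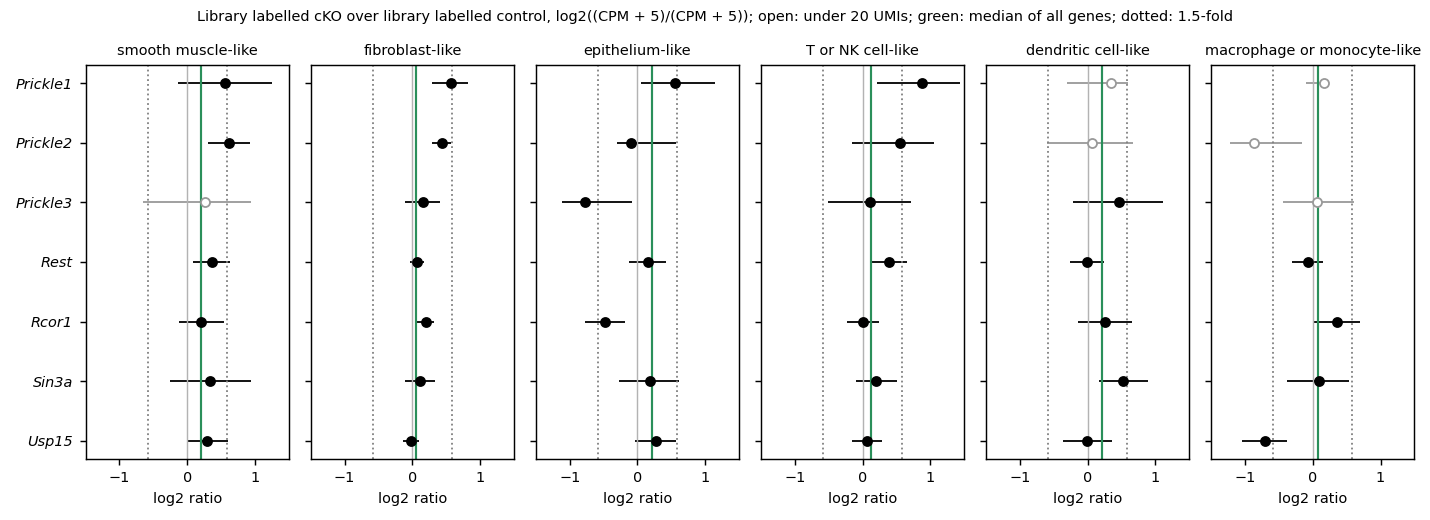
Log2 ratio between libraries (cKO over control, CPM + 5 scale) for the 7 genes in 6 cell classes. Bars are exact 95% counting intervals, open points have under 20 UMIs, the green line is the median of all genes in the class and dotted lines mark 1.5-fold. The 4 filled points beyond the dotted lines are Prickle2 in smooth muscle-like cells, Prickle3 in epithelium-like cells, Prickle1 in T or NK cell-like cells and Usp15 in macrophage-like cells.

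Over the 6 compared classes the 7 genes gave 42 pairs of gene and class, of which 36 had at least 20 UMIs and 4 were past 1.5-fold. In smooth muscle-like cells 1 of 6 genes was past it beside 26.1% of all genes, and in fibroblast-like cells 0 of 7 beside 6.47% (4.11% upward and 2.36% downward). In epithelium-like cells it was 1 of 7 beside 39% (11.4% downward and 27.5% upward), in T or NK cell-like cells 1 of 7 beside 12.6%, in macrophage-like cells 1 of 4 beside 14.3% (7.3% upward), and in dendritic cell-like cells 0 of 5 beside 24.1% (17.1% upward and 6.94% downward). In smooth muscle-like and T or NK cell-like cells 7.32% and 4.37% of genes were past it downward. The median log2 ratio of the genes counted was 0.35 in smooth muscle-like cells beside 0.21 for all genes, and 0.16 in fibroblast-like cells beside 0.06. When levels were scaled by the median of gene ratios, all-gene medians became 0.00 in both classes, so a positive log2 ratio is read against the class median.

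**Figure D3:**
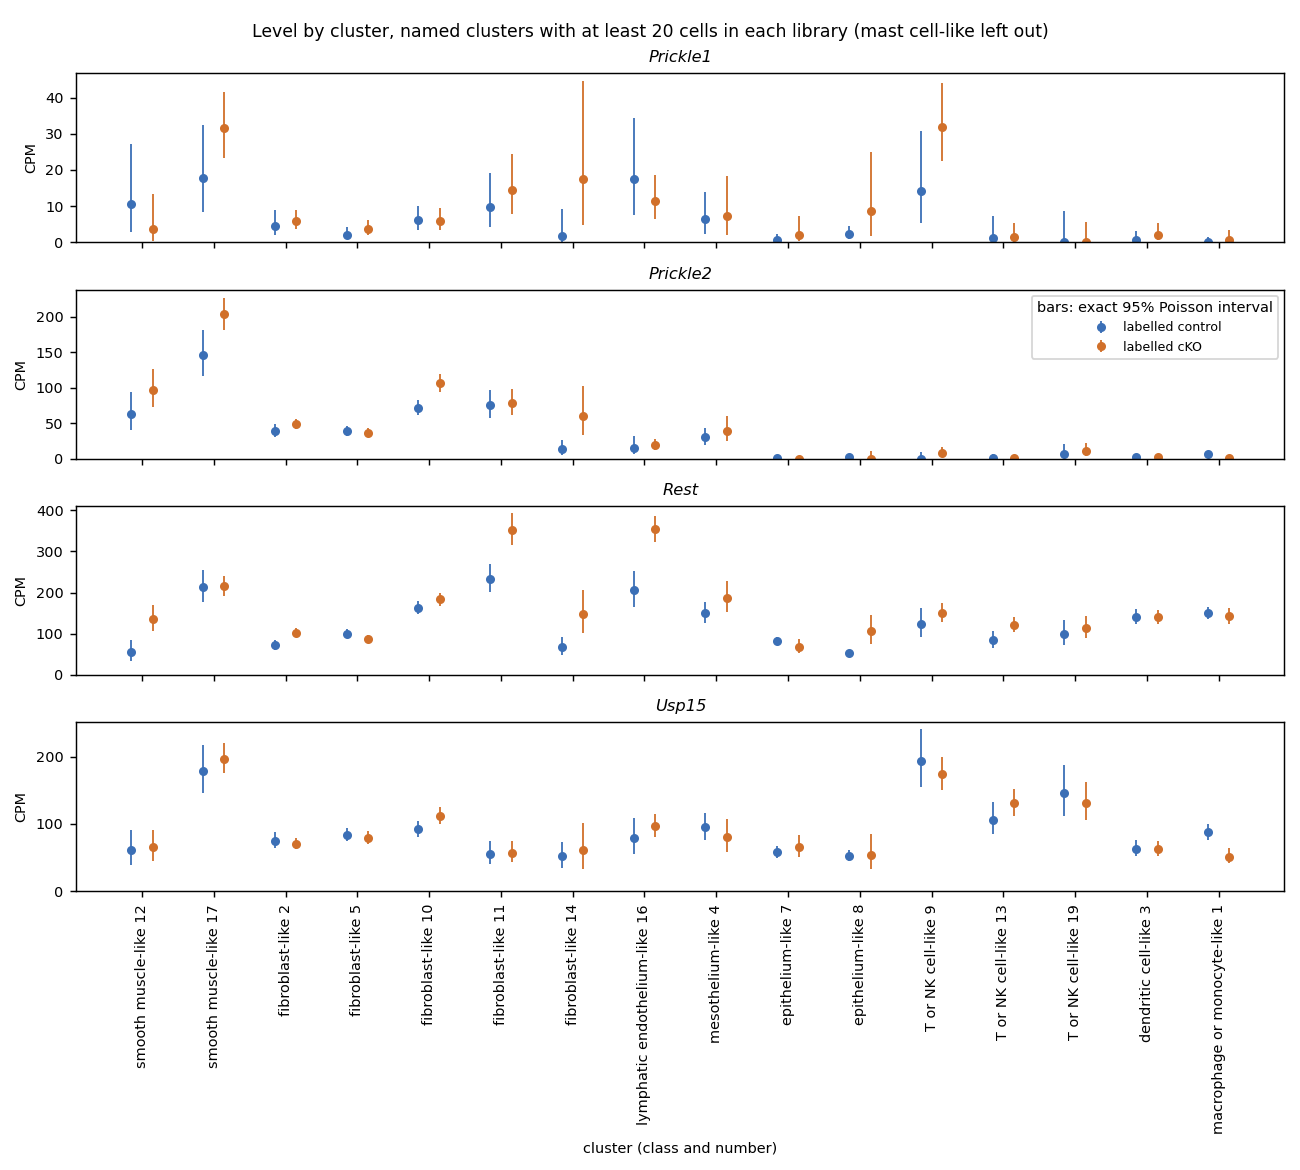
Level of Prickle1, Prickle2, Rest and Usp15, in CPM on linear axes that start at 0, in named clusters with at least 20 cells in each library. Points are the 2 libraries and bars exact 95% Poisson intervals. The highest Prickle1 points are 31.5 CPM in smooth muscle-like cluster 17 and 31.9 CPM in T or NK cell-like cluster 9, and the highest Rest points 353 CPM in fibroblast-like cluster 11 and 354 CPM in lymphatic endothelium-like cluster 16, all in the cKO-labelled library. Mast cell-like cells are left out.

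The cell classes that gave the UMIs differed between the libraries. Epithelium-like cells were 37.6% of the cells labelled control and 3.04% of those labelled cKO, and they gave 56.6% and 3.51% of the Rcor1 UMIs, 35.3% and 2.49% of the Rest UMIs and 37.0% and 3.25% of the Usp15 UMIs. Fibroblast-like cells gave 68.5% and 69.7% of the Prickle2 UMIs. The 2.56 and 9.0 CPM of Prickle1 over all cells are thus values of mixtures that differ.

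**Figure D4:**
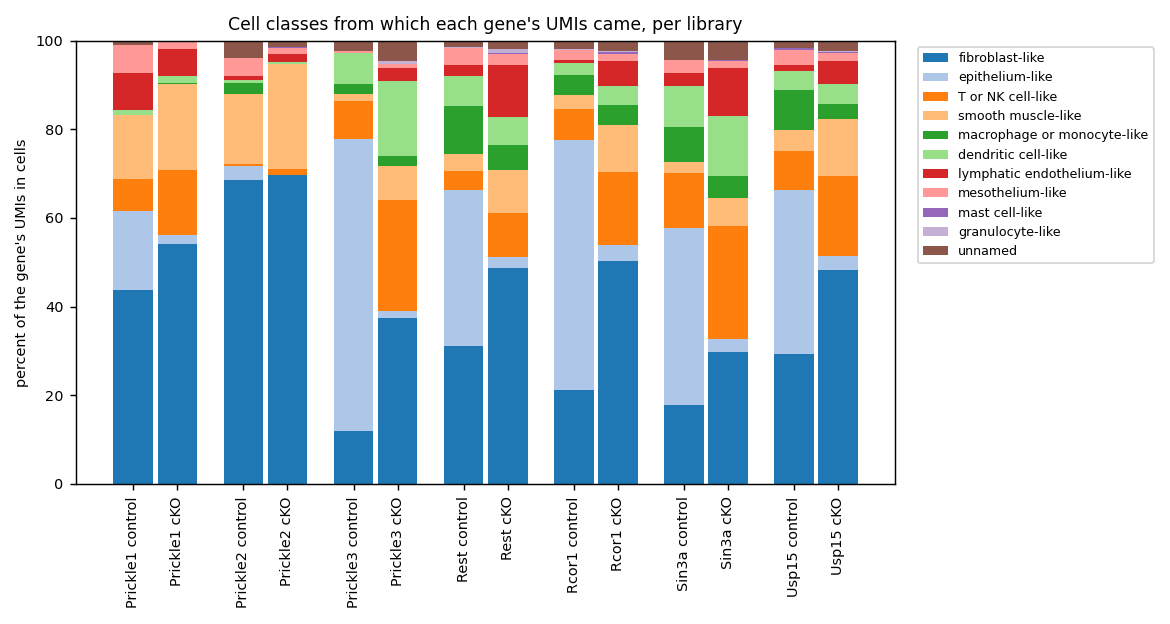
Percent of each gene's UMIs in cells that came from each cell class, stacked to the total, with 1 bar per gene and library. Epithelium-like cells hold 65.7% of Prickle3 UMIs and 56.6% of Rcor1 UMIs in the control-labelled library and small shares in the cKO-labelled library, while fibroblast-like cells hold 68.5% and 69.7% of Prickle2 UMIs.

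Prickle1 and Prickle2 were found in the same smooth muscle-like cells in 2 of 313 cells of the control-labelled library and 28 of 680 of the cKO-labelled library. Cells with a Prickle1 UMI were deeper, with a median of 5520 UMIs against 2013 for the class in the cKO-labelled library. In fibroblast-like cells both were found in 14 of 853 and 55 of 1342 cells. None of the 7 genes was seen in 51.4% and 36.0% of smooth muscle-like cells, and in 25.9% and 16.4% of the deeper fibroblast-like cells.

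Other genes of these pathways were taken from lists set by name. Of 22 REST corepressor partners (histone deacetylases, demethylases and further subunits), 21 had enough UMIs in smooth muscle-like cells, of which 14 had a log2 ratio above 0 and 7 below, where 67.5% of all genes of the class were above 0. Of the 21, 0 were past 1.5-fold upward and 1 downward, beside 18.8% and 7.32% of all genes. That gene was Hmg20b, a subunit of the CoREST complex, at 61.5 CPM (58 UMIs) and 24.8 CPM (52 UMIs), for a ratio of 0.404 (0.272 to 0.598). In fibroblast-like cells 0 of the 22 were past 1.5-fold, beside 6.47% of all genes, the highest being Phf21a, which reads unmethylated histone tails within CoREST, at 17.9 and 27.9 CPM, a ratio of 1.56 (1.30 to 1.87). The lists' medians were 0.11 and 0.08, beside 0.21 and 0.06 for all genes.

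Of 7 genes for REST turnover, 6 in smooth muscle-like cells and 7 in fibroblast-like cells had a log2 ratio above 0, beside 67.5% and 59.8% of all genes. In smooth muscle-like cells 0 of the 7 were past 1.5-fold, beside 26.1% of all genes. In fibroblast-like cells 1 of the 7 was past it, upward, beside 6.47% of all genes in either direction and 4.11% upward. That gene was Btrc, which encodes an F-box protein that marks REST for degradation. It was at 3.95 and 9.19 CPM from 38 and 148 UMIs, a ratio of 2.32 (1.62 to 3.41). Of the 2 transport genes with enough UMIs in smooth muscle-like cells both were past 1.5-fold upward, beside 18.8% of all genes. Dctn1, a dynactin subunit gene named after its value was seen, was at 31.8 and 51.6 CPM, a ratio of 1.62 (1.07 to 2.52). Htt, whose product holds REST in the cytoplasm of neurons, was at 42.4 and 75.9 CPM, a ratio of 1.79 (1.26 to 2.60). Among USP15 relatives and partners, 0 of 8 were past 1.5-fold in smooth muscle-like cells, beside 26.1% of all genes, and 0 of 9 in fibroblast-like cells, beside 6.47%. The lowest was Mdm2, an E3 ligase stabilised by USP15, at 176 and 119 CPM in fibroblast-like cells, a ratio of 0.676 (0.633 to 0.722).

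Of the PET and LIM domain relatives of the Prickle proteins, Tes was higher and Lmcd1 lower in fibroblast-like cells of the cKO-labelled library. Tes, a focal adhesion protein gene, was at 26.6 and 47.1 CPM, a ratio of 1.77 (1.53 to 2.05), and Lmcd1 at 8.74 and 3.23 CPM, a ratio of 0.369 (0.256 to 0.528). Of the 10 core planar cell polarity genes, 6 had enough UMIs in smooth muscle-like cells, with 1 past 1.5-fold in each direction, beside 18.8% of all genes upward and 7.32% downward. The higher was Dvl3, a Dishevelled gene, at 47.7 and 92.6 CPM, a ratio of 1.94 (1.40 to 2.75). The lower, named after its value was seen, was Vangl1, a membrane component of the pathway, at 10.6 CPM (10 UMIs) and 5.25 CPM (11 UMIs), for a ratio of 0.495 (0.191 to 1.30).

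REST target genes, most of which encode neuronal proteins, were sparse. Of 32, 5 had at least 20 UMIs in smooth muscle-like cells and 11 in fibroblast-like cells. All 32 summed to 99.6 and 98.4 CPM in smooth muscle-like cells and to 40.0 and 38.6 CPM in fibroblast-like cells, so the sums were close in the 2 libraries. In smooth muscle-like cells 2 of the 5 were past 1.5-fold upward and 2 downward, beside 18.8% and 7.32% of all genes. The higher ones were Celf4, an RNA-binding protein gene, and Vgf, a neuropeptide precursor gene, which was at 6.36 and 16.7 CPM, a ratio of 2.63 (1.09 to 7.64). Cacna1h, a T-type calcium channel gene, was at 28.6 and 12.4 CPM, a ratio of 0.434 (0.243 to 0.772), and Scn2a, a sodium channel gene, at 13.8 and 5.73 CPM, a ratio of 0.416 (0.173 to 0.988). In fibroblast-like cells 0 of 11 were past 1.5-fold, beside 6.47% of all genes. Nefl, a neurofilament gene, was lowest there at 24 and 7 UMIs, a ratio of 0.174 (0.0633 to 0.416).

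The targets with the highest summed level of both libraries differed between classes. Celf4 led in smooth muscle-like cells at 19.1 and 33.4 CPM and in fibroblast-like cells at 12.2 and 10.3 CPM. Kcnn4, a calcium-activated potassium channel gene, led in epithelium-like cells at 61.1 and 44.5 CPM and in T or NK cell-like cells at 69.6 and 68.1 CPM. In lymphatic endothelium-like cells, where Rest was highest, the 32 targets summed to 69.8 and 41.3 CPM, with Stmn2, a neuronal microtubule regulator gene, at 32.7 and 12.1 CPM from 15 and 17 UMIs. In mesothelium-like cells they summed to 151 and 163 CPM, led by the synaptic gene Cplx2 at 58.7 and 44.6 CPM.

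The genes whose level over the 19 combinations of class and library was most like each of the 7 were named by Pearson r among 11758 genes, a description over points that share libraries. They included Hnrnpr (0.92) and Senp6 (0.90) for Prickle1, and Akap1 and Lix1l (each 0.94) for Prickle2. For Prickle3 they were Ascc2 (0.91), Arid3b (0.89) and Mob3a (0.88), and for Rest Borcs6 (0.92), Icam1 (0.88) and Cbll1 (0.88). For Rcor1 they were Cnst (0.87), Hinfp (0.85) and Sesn1 (0.84), for Sin3a Nudt16l1 (0.94), Eapp (0.93) and Baz2a (0.92), and for Usp15 Rbm48 (0.86), Ccdc66 (0.86) and Ypel1 (0.85). Among the 7 genes themselves the highest r after Prickle1 with Prickle2 was 0.59, for Prickle1 with Rcor1.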

How the data were processed

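Whole uteri were digested for 5 hours, per the labels' protocols, and sequenced as 3-prime droplet libraries. The authors deposited raw counts of UMIs per gene and barcode with no normalization, per the file headers, which name Cell Ranger version 4. The submitters' processing notes name Cell Ranger 6.1.1 and the build mm10. The annotation release is not given in the sources used here, and 32235 of 32285 identifiers (99.8%) occur in GENCODE vM21.

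A barcode counted as a cell from 1000 UMIs and 500 genes upward, with no more than 20% mitochondrial UMIs. Scrublet marked 4 of 7076 cells (0.0565%), which were removed. That share is too low for the caller to have worked, so doublets remain. All cells were clustered jointly in scanpy 1.11.5 (2000 variable genes without the genes and lists described here, 30 components, 15 neighbours, Leiden resolution 1.0 with igraph 0.11.9). A name needed 3 or more markers, each seen in 25% or more of the cluster's cells and at 2 times the median cluster or above. It stayed unnamed if another class's marker was among its 10 leading genes (cluster 15, 0.688% and 0.781% of cells) or if more markers of another class passed. The last rule was set after the data were seen and kept out cluster 20 (0.660% and 0.725% of cells), whose cells carried T or NK cell and fibroblast markers. Ptx3, Cxcl5 and Il6, inflammatory genes, led fibroblast-like cluster 2.

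UMIs were summed per class or cluster and library and divided by the class total to give CPM. Poisson, Clopper-Pearson and conditional ratio intervals at 95% were computed with scipy 1.17.1 and checked on simulated counts. No test was made, as each group is 1 library. The genes and lists were chosen with earlier results of these data known. Beyond the 7 genes, the text names the 3 highest and 3 lowest log2 ratios among list genes in each of the smooth muscle-like and fibroblast-like classes, the REST targets of highest level per class and the 3 genes most like each, of which 2 are not reported here. Alternatives covered scaling, the added CPM, depth, free RNA, resolution, mitochondrial limit, doublets, clusters and filters.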

Additional observations from a re-analysis of the deposited data

Results flagged for a closer look

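In barcodes with at most 100 UMIs, which hold free RNA rather than cells, 4 of the 7 genes were higher in the cKO-labelled library by a ratio whose counting interval lay above 1. By the same rule 28.2% of 12207 genes with at least 10 UMIs there were higher, and 1835 of them were lower. Prickle1 was at 1.55 CPM (4 UMIs) in the control-labelled library and 7.09 CPM (13 UMIs) in the cKO-labelled library, a ratio of 4.57 (1.41 to 19.2). Prickle2 was at 9.31 and 31.1 CPM, a ratio of 3.34 (2.04 to 5.62). Rest was at 56.2 and 95.4 CPM, a ratio of 1.70 (1.35 to 2.13), and Usp15 at 40.3 and 58.3 CPM, a ratio of 1.45 (1.09 to 1.91). For Rcor1 (45.8 and 47.4 CPM), Sin3a (15.1 and 21.3 CPM) and Prickle3 (2.33 and 4.91 CPM) the interval of the ratio held 1. In the same barcodes the smooth muscle markers summed to 1534 and 3113 CPM, fibroblast markers to 1417 and 2372 CPM and epithelium markers to 3729 and 389 CPM.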

How the results depend on the processing

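With 1 library per group no library could be left out, and no paired analysis was possible because the groups hold 1 library each and no result comes from a test. The log2 ratio of Prickle1 in smooth muscle-like cells stayed within its counting interval in all 10 alternatives, from -0.08 (clusters weighted equally) to 0.70. That of Prickle1 in fibroblast-like cells was 0.57 and became 0.88 with 1 CPM added and 0.25 without clusters of 1 library, the second because 72 of 143 UMIs left with cluster 22. The count of 4 pairs past 1.5-fold became 9 with 1 CPM added, 2 with a minimum mean of 10 CPM and 0 at 2-fold, and it was 4 to 6 in the other settings. Of 360 alternatives for 36 single values, 329 stayed within the counting interval of the value and 31 lay outside it. Part of the 329 could not move. Leaving out clusters of 1 library changed only fibroblast-like and epithelium-like cells. Weighting clusters equally left macrophage-like and dendritic cell-like cells unchanged, as each was 1 cluster. The sign was the same in all 10 alternatives for 19 of the 36 values, and 17 did not keep it in at least 1. In 12 alternatives the sign was not kept and the value lay outside the interval. Among the 4 values past 1.5-fold only Prickle3 in epithelium-like cells changed sign, from -0.78 to 0.0014 when cells were thinned to 1000 UMIs, from 12 and 1 UMIs. The cause was not tested. Depth limits Prickle1 and Prickle3 most, which had 0 to 143 UMIs per class and library.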

Other observations

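Granulocyte-like cells, too few to compare, had the highest Rest level of any class, at 551 CPM (238 to 1086) from 8 UMIs in 5 cells of the control-labelled library and 420 CPM (285 to 596) from 31 UMIs in 30 cells of the cKO-labelled library. Erythroid markers in them summed to 138 and 11258 CPM. Mast cell-like cells held 10 and 7 Usp15 UMIs (139 and 56.3 CPM) and 1 and 8 Rest UMIs.

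Unnamed cluster 20, with 23 and 26 cells at 3.67 times the libraries' median depth and the cycling genes Top2a and Mki67 among its leading genes, had Prickle2 at 64.8 CPM (26 UMIs) and 40.3 CPM (20 UMIs). Fibroblast markers in it summed to 5520 and 6132 CPM and T or NK cell markers to 1233 and 930 CPM.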
